A study of Mus musculus with 6 samples.

Results

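Fibroblasts are the connective tissue cells that build and maintain the matrix under the gastric epithelium, in the submucosa and around vessels. They secrete collagens together with small leucine-rich proteoglycans that space collagen fibrils, adhesive glycoproteins such as fibronectin, and matricellular proteins that modulate adhesion during repair and in tumour stroma. Their surface receptors, PDGFRA above all, are used to recognise the lineage, and different fibroblast states carry different markers, with PI16 marking a population of the adventitia and FAP marking activated fibroblasts of wounds and tumours.

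The 10 fibroblast and stromal matrix genes described here were taken by symbol, Dcn, Lum, Postn, Tnc, Sparc, Fn1, Pdgfra, Fap, Thy1 and Pi16, from 18988 rows of expression values, and each had 1 row. RNA was sequenced from the corpus, the main acid-secreting part of the stomach, of 6 C57BL/6 mice, each giving 1 library. The control genotype was Ras;APC FF (replicates 1 to 3), and the other was PGC;Ras;APC FF (replicates 4 to 6), so that both groups carried Ras;APC FF and differed by the PGC component. Controls are hereafter the Ras;APC FF libraries, and libraries with PGC the PGC;Ras;APC FF ones. The labels give no age, inducing agent, time point or driver promoter, and do not spell out PGC or FF. The comparison asks how these genes differ in the corpus with and without PGC.

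Levels are in FPKM (fragments scaled by gene length and by library size) and can be compared between genes. Summed FPKM per library ranged from 664821 to 804774, and read numbers per library were not on hand. The 11 gastric corpus epithelium markers summed to 272518 to 293166 FPKM in controls and to 129120 to 205122 FPKM with PGC, with Pgc, the pepsinogen C gene, alone at 168346 ± 27006 and 60757 ± 38953 FPKM. Of the 11, 6 had a negative log2 change and 5 a positive one. Krt8, Krt18 and Epcam were higher in all libraries with PGC than in all controls, as were 42.7% of all tested genes. Pgc and Atp4b were lower in all libraries with PGC, as were 5.47%. Replicate 6 had the lowest sum and stood apart more widely, being the one of replicates 4 to 6 farthest from the control mean in 81.1% of the tested genes. Control replicate 3 was the 1 library with reads of the Y-linked gene Eif2s3y (13.15 FPKM) and had Xist at 0, so that sex was not balanced between the groups. In whole tissue, fewer cells of a type and less RNA per cell cannot be told apart.

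For each gene, log2(FPKM + 1) was compared between the groups with limma, a linear model that shares the spread across genes, over the 11857 genes with at least 1 FPKM in at least 3 libraries. The Benjamini-Hochberg adjustment covered all of them, with a threshold of 0.05, and 9 of the 10 fibroblast and matrix genes entered this test. Of these 9, 0 rose, 1 fell and 8 did not pass, while 0.11% of all tested genes rose and 0.0422% fell. At an unadjusted limma p under 0.05 there were 4 higher genes and 1 lower among the 9, against 31.8% and 3.63% of all tested genes. The gene that fell was Pi16. The median log2 change of the 9 was 0.46, beside 0.26 over all tested genes, and after median-of-ratios scaling, which sets libraries to a common typical gene, the medians were 0.15 and -0.0027. Without replicate 6 the median of the 9 was 0.11, below the 0.17 over all genes then tested.

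**Figure D1:**
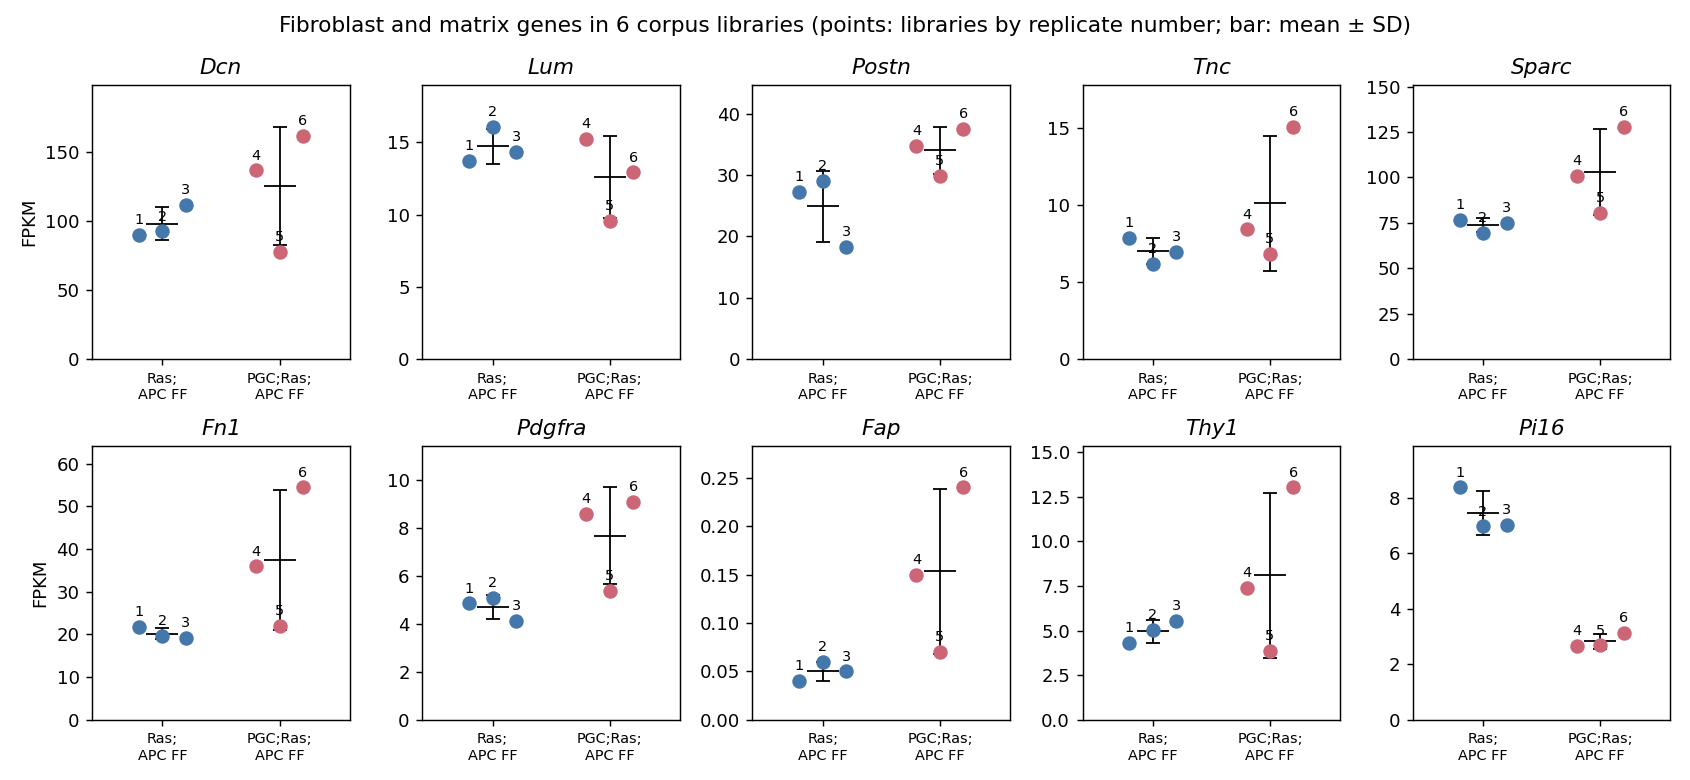
FPKM of each of the 10 genes (y axis, from 0) in each corpus library, grouped by genotype on the x axis; points are libraries labelled with their replicate number, and the bar is the mean ± SD of 3 libraries. Pi16 lies between 2.65 and 3.14 FPKM with PGC and between 6.97 and 8.37 in controls, while most other genes spread from a low replicate 5 to a high replicate 6.

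The upstream sequences of Postn and Pdgfra are shown because all libraries with PGC lay above all controls for both. A further reason is that the RefSeq start sites used lie within 2 and 41 bases of the gene's start in GENCODE M21. Each is the 250 bases before the start site on GRCm38.p6, the assembly of mm10, written 5′ to 3′ on the gene's strand. Capitals mark matches on either strand to TATAAA (the TATA box) or CAGAC (the SMAD box, read as GTCTG on the other strand).
Postn (chr3:54360857-54361106, plus strand): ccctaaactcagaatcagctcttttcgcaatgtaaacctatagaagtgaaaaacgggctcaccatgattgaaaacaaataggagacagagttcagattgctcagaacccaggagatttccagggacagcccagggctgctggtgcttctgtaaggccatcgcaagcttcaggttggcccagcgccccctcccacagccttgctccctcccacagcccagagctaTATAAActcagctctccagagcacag
Pdgfra (chr5:75152001-75152250, plus strand): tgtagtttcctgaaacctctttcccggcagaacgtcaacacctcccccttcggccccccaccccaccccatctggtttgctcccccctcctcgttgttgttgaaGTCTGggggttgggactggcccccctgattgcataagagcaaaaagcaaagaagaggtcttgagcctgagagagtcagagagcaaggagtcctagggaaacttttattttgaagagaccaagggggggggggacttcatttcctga

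The printed Postn window held a TATA box match that began 26 bases before the start site, and the Pdgfra window a SMAD box match 146 bases before. The window of Pi16, not printed because its start site lies 1202 bases inside the gene in GENCODE M21, held a SMAD box match 46 bases before the start site. Among 32851 RefSeq promoter windows of the same length, 42.2% held a CAGAC match and 12.4% a TATAAA match. None of these 3 windows held TGANTCA, an AP-1 site found in 6.75% of windows, or CTTTGAT, a TCF/LEF site found in 3.21%. RefSeq windows were on hand for 5 of the 10 genes.

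Pi16 encodes peptidase inhibitor 16, a surface protein of adventitial fibroblasts, on chromosome 17 from 29317680 to 29330593 (plus strand, protein coding, coordinates here and below from GENCODE M21 on the mm10 assembly). Its FPKM was 8.37, 6.97 and 7.03 in control replicates 1 to 3 and 2.65, 2.68 and 3.14 in replicates 4 to 6. The groups did not overlap, and the 3 libraries with PGC lay close together, replicate 6 included. The mean went from 7.46 ± 0.792 to 2.82 ± 0.275 FPKM (SD, n = 3 each), 2.64-fold lower, with a log2 change of -1.14 ± 0.13 (SE) and a limma adjusted p of 0.0269.

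By size of fall Pi16 was number 29 of the 11857 tested genes, and by unadjusted p number 14. Over all alternative settings and left-out libraries its log2 change ran from -1.40 to -1.07. The call was lost in several left-out settings: the limma adjusted p was 0.246, 0.212 and 0.182 without control replicates 1, 2 and 3, and 0.0975 without replicate 4. It was 0.0206 without replicate 5 and 0.00845 without replicate 6. Without any 1 control, 0 of all tested genes passed in either direction, and the unadjusted limma p of Pi16 was 3.20e-04, 2.35e-04 and 2.33e-04. The call was also lost, at an adjusted p of 0.106, when genes with low values were kept in the test. AC162182.1, annotated on the opposite strand, shares 222 of the 6364 exon bases of Pi16, and the sources used here do not say whether counting used strand.

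The 5 tested genes with the pattern most like Pi16, by the root mean square difference of their log2 profiles over the 6 libraries, were Hpx (0.16), Flnc (0.23), Ugt1a7c (0.24), Rgs5 (0.24) and Hspb6 (0.25). Hpx encodes the heme carrier hemopexin, Flnc a filamin of muscle, Rgs5 a regulator of G-protein signalling of pericytes, and Hspb6 a heat shock protein abundant in muscle. Of these, Hspb6 fell (30.8 ± 3.73 to 11.3 ± 0.913 FPKM, limma adjusted p = 0.0131), and the other 4 had an adjusted p of 0.085. Flnc was at 7.38 ± 1.37 FPKM with Ras;APC FF alone and at 3.17 ± 0.665 with PGC, and Ugt1a7c at 24.8 ± 4.31 and 12.0 ± 0.855. Hpx was low, at 1.72 ± 0.397 and 0.35 ± 0.114 FPKM, where the added 1 makes changes come out too small.

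Markers of the muscle wall and of fat stood lower in the same libraries as Pi16. The 10 smooth muscle markers summed to 2389 to 4243 FPKM in controls and 1086 to 1579 with PGC, with 10 of 10 not overlapping on the lower side (5.47% of all tested genes did so) and a median log2 change of -1.19, although 0 passed the threshold over all genes. The 2 most abundant, Actg2 and Acta2, had log2 changes of -1.41 and -1.05. Of 4 tested adipocyte markers 2 fell, Cfd and Adipoq. Adipoq had 3.20, 3.12 and 5.03 FPKM across the controls and 0.25, 0.05 and 0 across replicates 4 to 6. The 6 pericyte markers had a median of -0.42, with 3 of them separate on the lower side, among them Rgs5 at 47.7 ± 3.69 and 25.4 ± 4.15 FPKM, and 2, Kcnj8 and Notch3, with positive changes (0.28 and 0.10). The part of these tissues in the fall of Pi16 was not tested.

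Of 11 tested adventitial fibroblast genes 0 rose, 0 fell and 11 did not pass, 10 had a negative log2 change, and the median was -0.24, beside 0.26 over all tested genes. Under median-of-ratios scaling it was -0.52. Clec3b, which encodes tetranectin, was at 17.7 ± 1.95 FPKM in controls and 9.01 ± 2.36 with PGC, and the matrix protein gene Dpt (dermatopontin) at 35.4 ± 4.03 and 20.9 ± 6.22, both named after their values were seen (limma adjusted p = 0.085 and 0.0872). For both, all 3 libraries with PGC were lower than all 3 controls. In the other direction, the complement gene C3 had a log2 change of 0.50, and Dpp4, too low for the test and like C3 named after its values were seen, was at 0.31 to 0.40 FPKM in controls and 0.56 to 2.12 with PGC. Gsn, the actin-severing gelsolin gene and the most abundant of the list, was at 304 ± 14.3 and 267 ± 33.7 FPKM, and Ly6a at 54.4 ± 10.4 and 50.7 ± 27.3.

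Dcn encodes decorin, the proteoglycan that binds collagen fibrils, on chromosome 10 from 97479609 to 97518143 (plus strand). It was the most abundant of the 10 genes, with 90.0, 92.6 and 112 FPKM in controls and 137, 77.8 and 162 in replicates 4 to 6. The groups overlapped, since replicate 5 was the lowest library of all and replicates 4 and 6 the highest. Its log2 change was 0.29 ± 0.27 (SE, limma adjusted p = 0.427), and it turned to -0.015 with median-of-ratios scaling and -0.046 with quantile-normalized values, so that no direction can be given. Without replicate 5 it was 0.60 and without replicate 6 it was 0.078.

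Lum encodes lumican, a keratan sulfate proteoglycan of the same leucine-rich family, and lies next to Dcn on chromosome 10 (97565128 to 97572703, plus strand). It had 13.7, 16.1 and 14.3 FPKM in controls and 15.3, 9.58 and 12.9 with PGC. It was the 1 gene besides Pi16 with a negative log2 change, -0.23 ± 0.18 (SE, limma adjusted p = 0.352). Replicate 4 lay within the control range and replicates 5 and 6 below it, and the change was -0.060 without replicate 5 and -0.37 without replicate 4. After median-of-ratios scaling its groups no longer overlapped and the log2 change was -0.52 (limma adjusted p = 0.14).

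The ratio of Lum to Dcn within a library, which does not depend on how libraries are scaled, was 0.153, 0.174 and 0.128 in controls and 0.111, 0.123 and 0.0799 with PGC. Every library with PGC was thus below every control, although replicate 5 (0.123) and control replicate 3 (0.128) were close. With 3 libraries against 3 the smallest two-sided p of an exact test is 0.1, and such ratios are given as values only. How many of all tested genes are separate relative to Dcn was not computed. Of the 7 other tested proteoglycans of the matrix 0 rose or fell, and their median log2 change was -0.24. Bgn (biglycan), closest to decorin in the family, was at 87.1 ± 9.97 and 129 ± 48.1 FPKM, and Ogn (osteoglycin) at 48.9 ± 5.56 and 34.2 ± 17.3.

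Postn encodes periostin, a matricellular protein that binds integrins and promotes collagen crosslinking, on chromosome 3 from 54361109 to 54391037 (plus strand). Its FPKM was 27.3, 29.1 and 18.2 in controls and 34.7, 29.9 and 37.5 in replicates 4 to 6. All libraries with PGC were above all controls, by a small margin between control replicate 2 and replicate 5. The log2 change was 0.46 ± 0.20 (SE) and did not pass (limma adjusted p = 0.138), and it was 0.16 with median-of-ratios scaling and 0.12 with quantile-normalized values. Among the libraries with PGC its SD was 11.3% of the mean, the smallest of the 10 genes after Pi16, and among controls it was 23.4%, the largest.

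Sparc encodes osteonectin, a collagen-binding glycoprotein that fibroblasts and endothelium both make, on chromosome 11 from 55394500 to 55423183 (minus strand). It had 76.7, 69.2 and 74.8 FPKM in controls and 101, 80.6 and 128 with PGC, again with no overlap. The log2 change was 0.46 ± 0.19 (SE, limma adjusted p = 0.127), and it was 0.15 with median-of-ratios scaling, 0.097 with quantile-normalized values and 0.29 without replicate 6. The 8 endothelial markers had a median log2 change of 0.035 (-0.23 after median-of-ratios scaling), with summed levels of 96.0 to 116 FPKM in controls and 97.7 to 117 with PGC. Sparcl1, the related gene that smooth muscle and vessels express, was at 76.7 ± 10.1 and 37.1 ± 7.94 FPKM (log2 change -1.04, limma adjusted p = 0.085).

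Tnc encodes tenascin C, a large hexameric glycoprotein of tissue remodelling, on chromosome 4 from 63959785 to 64047015 (minus strand). It was at 7.86, 6.18 and 6.98 FPKM in controls and 8.43, 6.83 and 15.1 with PGC. Replicate 6 was 2.16 times the control mean, whereas replicates 4 and 5 were 1.20 and 0.975 times. The log2 change was 0.41 ± 0.26 (SE, limma adjusted p = 0.267), and it was 0.11 without replicate 6, 0.63 without replicate 5 and 0.13 with median-of-ratios scaling.

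Fn1 encodes fibronectin, the adhesive glycoprotein bound by integrins, on chromosome 1 from 71585520 to 71653200 (minus strand). Controls were at 21.7, 19.7 and 19.2 FPKM and libraries with PGC at 35.9, 21.9 and 54.4. The groups did not overlap, but replicate 5 exceeded control replicate 1 only slightly. Fn1 had the largest positive log2 change of the 9 tested genes, 0.77 ± 0.29 (SE, limma adjusted p = 0.115), at percentile 92.4 of all tested genes. Without replicate 5 it passed, at 1.10 (limma adjusted p = 0.0396), among 413 higher genes of the 11654 then tested. Without replicate 6 it was 0.46 (limma adjusted p = 0.151), while median-of-ratios scaling gave 0.47.

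Macrophages can also express fibronectin, and 8 macrophage markers summed to 88.0 to 125 FPKM in controls and 127 to 324 with PGC, highest in replicate 6. Their 7 tested members had a median log2 change of 0.66, or 0.37 after median-of-ratios scaling, with 0 past the threshold. C1qa and C1qb, the most abundant, were at 0.91 and 0.87. In the other direction, Mrc1 was at -0.068, and Cd163, too low for the test, at 0.36 ± 0.098 FPKM in controls and 0.16 ± 0.14 with PGC, both named after their values were seen. The part of macrophages in the Fn1 level was not tested. The ratio of Fn1 to Dcn was 0.241, 0.213 and 0.172 in controls and 0.262, 0.281 and 0.337 in replicates 4 to 6, with no overlap. Fn1 itself overlapped between the groups after median-of-ratios scaling.

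Pdgfra encodes the PDGF receptor alpha chain, the surface receptor by which fibroblasts are commonly recognised, on chromosome 5 from 75152292 to 75198215 (plus strand). It had 4.86, 5.09 and 4.13 FPKM in controls and 8.58, 5.39 and 9.10 with PGC. The groups did not overlap, and replicate 5 was again nearest the controls. The log2 change was 0.59 ± 0.20 (SE), and the limma adjusted p of 0.0984 was the lowest of the 7 genes with a positive change. It passed without replicate 5 (log2 change 0.79, limma adjusted p = 0.0441), among 413 higher genes of the 11654 then tested, and median-of-ratios scaling gave 0.32. Libraries were also weighted by limma's arrayWeights, an estimate that stopped short of its convergence tolerance. Replicate 6 then had a weight of 0.133 and replicate 4 of 3.55. In that setting Pdgfra (limma adjusted p = 0.018), Fn1 (0.0223) and Sparc (0.0294) passed, among 3523 higher genes of the 11857 tested.

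Of the 5 tested genes for PDGF ligands and the sister receptor Pdgfrb 0 rose or fell, 4 had a positive log2 change, Pdgfd being the exception, with a median of 0.50, or 0.25 by median-of-ratios scaling. Pdgfa, the main ligand of the alpha receptor, was at 14.5, 14.4 and 12.8 FPKM in controls and 19.7, 18.1 and 38.3 with PGC (log2 change 0.74, limma adjusted p = 0.107). Pdgfb was at 7.47 ± 0.478 and 10.2 ± 2.81 FPKM.

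Thy1 encodes the glycolipid-anchored surface protein CD90, carried by fibroblasts and also by T cells and neurons, on chromosome 9 from 44043384 to 44048579 (plus strand). Its FPKM was 4.30, 5.02 and 5.56 in controls and 7.37, 3.88 and 13.02 with PGC. Among the libraries with PGC it had the widest spread of the 10 genes, an SD of 57.0% of the mean, with replicate 5 below all controls and replicate 6 at 2.63 times their mean. The log2 change was 0.48 ± 0.34 (SE, limma adjusted p = 0.312), and it was 0.11 without replicate 6, 0.87 without replicate 5 and 0.21 with median-of-ratios scaling. The 7 T cell markers summed to 3.12 to 3.26 FPKM in controls and to 7.10, 3.93 and 14.6 in replicates 4 to 6. Replicate 5 was the lowest and replicate 6 the highest of these also for the macrophage sums, and for 8 of the 10 genes, Thy1 included. The share of all tested genes with this order was not computed. Neuron markers summed to 21.3 to 32.2 FPKM in controls and 14.9 to 20.1 with PGC. The part of T cells in the Thy1 level was not tested.

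Fap encodes fibroblast activation protein, a membrane serine protease, on chromosome 2 from 62500943 to 62574075 (minus strand). It was at 0.04, 0.06 and 0.05 FPKM in controls and 0.15, 0.07 and 0.24 with PGC, below the 1 FPKM needed for the test. Values are rounded to 2 decimals, so replicate 5 and control replicate 2 are 1 rounding step apart. The groups did not overlap, but no fold is given at this level.

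Replicates differed in the same way across most of the genes. Replicate 5 was the lowest library with PGC in 9 of 10 genes, all but Pi16, and replicate 6 the highest in 9 of 10, all but Lum. How often replicate 5 was lowest or replicate 6 highest over all tested genes was not computed. Of replicates 4 to 6, replicate 6 was the farthest from the control mean in 7 of the 9 tested genes, beside 81.1% of all tested genes. Fn1 was 2.49 times and Thy1 3.36 times higher in replicate 6 than in replicate 5, whereas Pi16 was 1.17 times higher and Postn 1.25 times. For 4 tested genes, Postn, Sparc, Fn1 and Pdgfra, all libraries with PGC were above all controls, as they were for 42.7% of all tested genes, and Pi16 was separate on the lower side, as were 5.47%. After median-of-ratios scaling 0 of the 9 stayed separate on the higher side, beside 18% of all tested genes, and Pi16 and Lum were separate on the lower side, beside 16.7%.

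**Figure D2:**
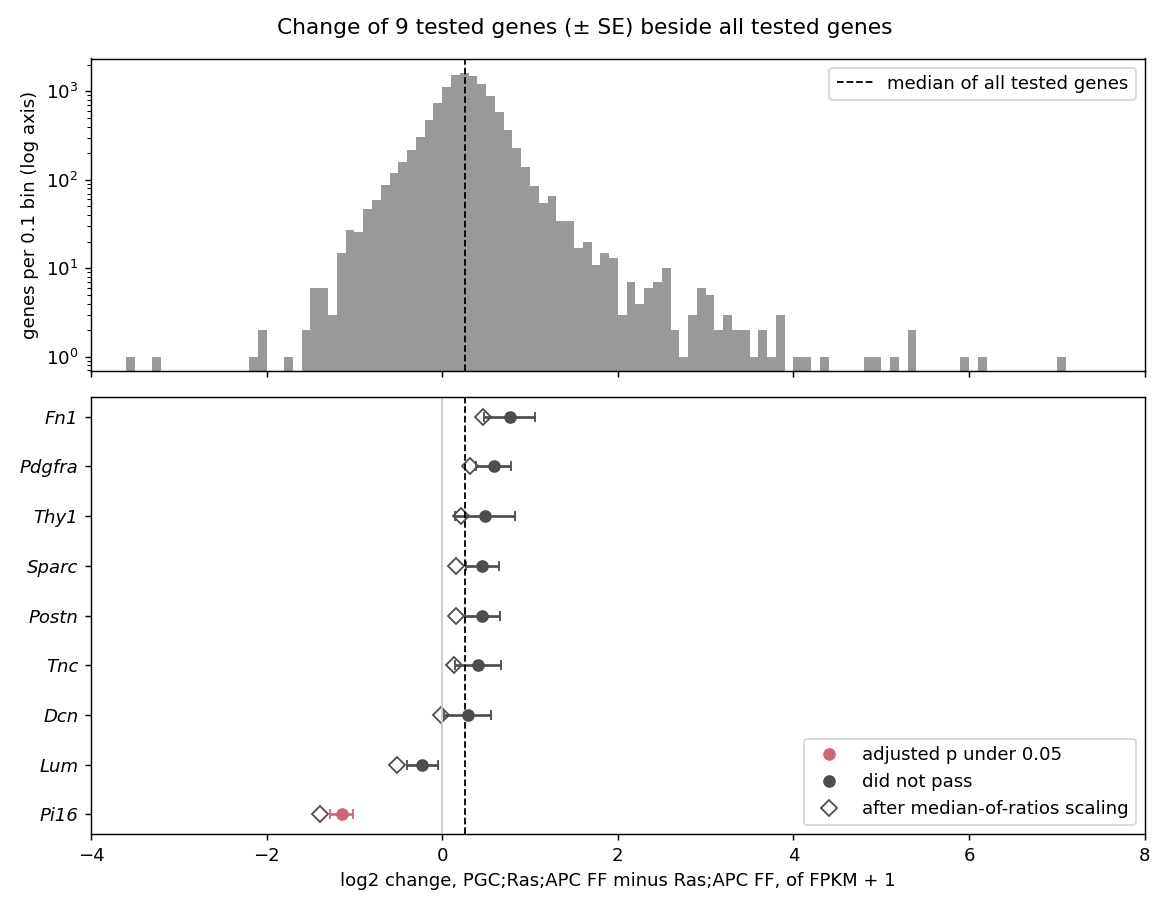
Top, number of tested genes (log axis) by log2 change between genotypes; bottom, log2 change ± SE of the 9 tested genes on the same x axis, with open diamonds for the change after median-of-ratios scaling. Pi16 at -1.14 is the 1 gene past the adjusted threshold, and the 7 genes with positive changes lie between 0.29 and 0.77, all above the median of 0.26 over all genes.

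Ordered by mean level in controls, the genes ran Dcn, Sparc, Postn, Fn1, Lum, Pi16, Tnc, Thy1, Pdgfra and Fap. The ranges of Postn and Fn1, of Pi16 and Tnc, and of Thy1 and Pdgfra overlapped, and the other neighbours were apart in all 3 libraries. With PGC, Pi16 stood after Pdgfra, in rank 9, with no overlap between the 2 genes. Relative to Dcn, Pi16 was at 0.0930, 0.0752 and 0.0627 in controls and 0.0194, 0.0344 and 0.0194 in replicates 4 to 6, a mean 3.16-fold lower. Pdgfra to Dcn was 0.0540, 0.0549 and 0.0369 in controls and 0.0627, 0.0693 and 0.0563 with PGC, higher with no overlap. Postn, Tnc, Sparc and Thy1 overlapped on this scale, and Pdgfra itself overlapped between the groups after median-of-ratios scaling.

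**Figure D3:**
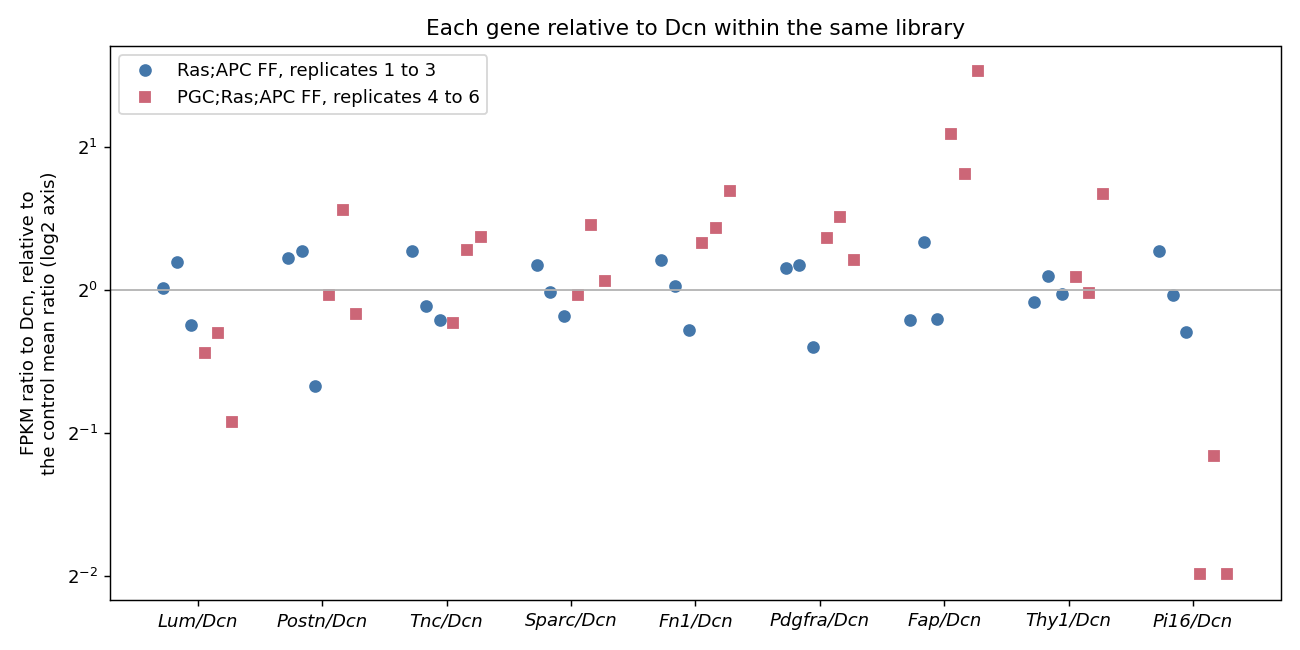
FPKM ratio of each gene to Dcn in the same library, divided by the mean ratio of the 3 controls (log2 axis); circles are Ras;APC FF and squares libraries with PGC. Pi16 and Lum lie below all controls, and Fn1, Pdgfra and Fap above all controls, with Fap resting on values of at most 0.24 FPKM.

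Other stromal genes gave the setting. Over 11 further lists (134 genes, 109 tested) 0 rose and 0 fell, 37 (33.9%) had an unadjusted limma p under 0.05, beside 35.4% of all tested genes, and the median log2 change was 0.21, beside 0.26. All 11 tested fibrillar and associated collagens had a positive change, as had 80.6% of all tested genes (median 0.41, and 0.12 after median-of-ratios scaling, where Col3a1, Col6a1, Col6a2 and Col14a1 turned negative), with Col3a1 at 58.2 ± 6.59 and 66.6 ± 5.58 FPKM and Col1a1 at 40.1 ± 6.09 and 66.9 ± 15.7 (log2 change 0.71, limma adjusted p = 0.0872). The 12 tested collagen folding and crosslinking genes had a median of 0.35, with the collagen chaperone gene Serpinh1 at a log2 change of 0.34 and the procollagen C-proteinase enhancer gene Pcolce at 0.21, or -0.088 after median-of-ratios scaling.

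Basement membrane genes had a median of 0.18 over 14 tested genes, which turned to -0.12 with median-of-ratios scaling. Col18a1, the precursor of endostatin, was at 11.1 ± 2.48 FPKM in controls and 40.9 ± 20.1 with PGC (log2 change 1.71, limma adjusted p = 0.085), and Col4a1 at 28.2 ± 1.80 and 35.0 ± 10.7. Matricellular and elastic fibre genes had a median of -0.052 over 18 tested genes, 9 in each direction, and of -0.32 with median-of-ratios scaling. Of the 18, 4 were separate on the higher side and 5 on the lower, beside 42.7% and 5.47% of all tested genes. With median-of-ratios scaling these were 2 and 7, beside 18% and 16.7%. Fbln1 (fibulin 1) was at 40.0 ± 8.45 and 49.8 ± 5.58 FPKM. Thbs1, the thrombospondin 1 gene, was at 5.47 ± 1.04 and 24.5 ± 13.1 FPKM (named after its values were seen, log2 change 1.87, limma adjusted p = 0.085). In the other direction, Tnxb, Mfap4 and Eln had log2 changes of -0.64, -0.59 and -0.51, all separate on the lower side and also named after their values were seen (limma adjusted p = 0.085, 0.0883 and 0.094).

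Signals that act on fibroblasts and genes of fibroblast states also had 0 calls. The 10 tested TGF-beta ligands, receptors and latency proteins had a median of 0.23, or -0.023 after median-of-ratios scaling, with Ltbp4 at 56.2 ± 8.91 and 55.0 ± 6.91 FPKM, Tgfbi at 32.2 ± 3.00 and 42.6 ± 8.19, and Tgfb1 (named after its values were seen) at 7.61 ± 0.685 and 19.2 ± 9.71. The 10 tested matrix receptors had a median of 0.24, or -0.021 on the latter scale, with the integrin gene Itgb1 at 61.0 ± 1.41 and 74.8 ± 10.9 FPKM and the collagen receptor gene Ddr1 at 43.8 ± 3.72 and 64.4 ± 6.36. All 6 tested subepithelial fibroblast genes had a positive change, as had 80.6% of all tested genes (median 1.00, and 0.71 after median-of-ratios scaling). Of the 6, 5 did not overlap, or 3 on the latter scale, beside 42.7% and 18% of all tested genes on the higher side. Among the tested ones F3 (tissue factor) was at 8.10 ± 1.29 and 26.3 ± 18.1 FPKM and Dkk3 at 8.77 ± 0.744 and 22.1 ± 15.5, both highest in replicate 6. Too low for the test, Sox6 was at 0.423 ± 0.0751 FPKM in controls and 0.357 ± 0.0603 with PGC, Gli1 at 0.877 ± 0.191 and 0.833 ± 0.411, and Foxl1 at 0.527 ± 0.0513 and 0.987 ± 0.210.

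Of 12 activated fibroblast genes 5 were tested, with a median of 0.64, or 0.37 after median-of-ratios scaling. Of these 5, 3 had a positive log2 change, and 2, Grem1 (-0.33) and Cxcl12 (-0.31), a negative one. The chemokine gene Cxcl14 was at 6.05, 6.12 and 4.54 FPKM in controls and 45.9, 16.4 and 76.6 with PGC (log2 change 2.61, limma adjusted p = 0.085), and Cxcl12 at 27.3 ± 2.89 and 22.7 ± 8.11.

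Among the remaining marker lists, which had 0 calls, mesothelial markers summed to 0.65 to 4.96 FPKM in controls and 3.99 to 10.1 with PGC. Glia markers summed to 4.63 to 5.45 and 2.30 to 8.31 FPKM, with 1 of 5 tested. Exocrine pancreas markers summed to 62.1 to 240 and 52.9 to 85.7 FPKM, highest in control replicate 3. The medians were 1.05 for the 2 tested mesothelial genes, -0.40 for the 4 tested pancreas genes, -0.50 for the 4 tested neuron genes and -0.056 for the 11 gastric epithelium genes.

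**Figure D4:**
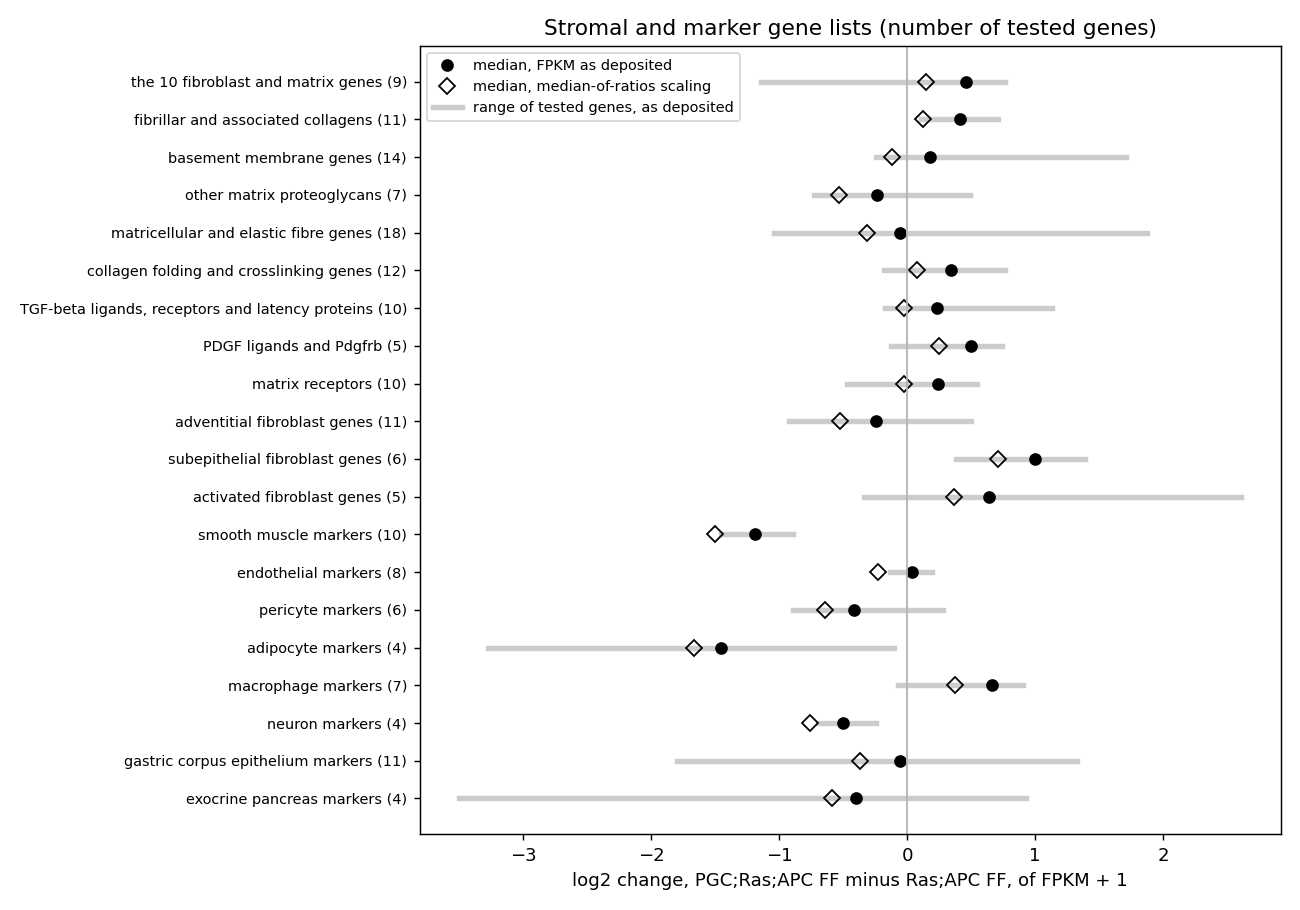
Median log2 change between genotypes of each stromal or marker list with at least 3 tested genes (filled circles as deposited, open diamonds after median-of-ratios scaling), with the range of its tested genes as a grey bar. Subepithelial fibroblast genes lie at a median of 1.00, smooth muscle markers at -1.19 and adventitial fibroblast genes at -0.24.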

How the data were processed

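Whole-corpus RNA of 6 mice (3 per genotype) was sequenced at BGI after silica column extraction with a DNase step, per the labels' protocols. The authors deposited FPKM per gene, rounded to 2 decimals. The submitters' processing notes name STAR, featureCounts and mm10. What versions, gene annotation and strand setting were used, and how counts became FPKM, is not given in the sources used here.

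As FPKM are not counts, log2(FPKM + 1) was compared between genotypes with a linear model (limma version 3.58.1, R version 4.3.3, moderated with a mean-variance trend, two-sided) over 11857 genes with at least 1 FPKM in at least 3 libraries. With the added 1, changes of genes with low FPKM come out too small. Residual degrees of freedom were 4. Since 6 mice gave 6 libraries, replicates are animals. Read depth is unknown, so no counting interval is given. The fit was tested on simulated data in which a gene had the same spread in all 6 libraries. Such data cannot show how the fit behaves where a library stands apart, as replicate 6 did.

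The 10 genes and the 11 stromal and 11 marker lists were chosen with earlier results of these data known. Named from each list were up to 3 genes that passed, or the 2 tested genes with the highest mean where fewer than 2 did, and for Pi16 the 5 most similar genes. Symbols Ccn1, Ccn2, Ccn4 and Cblif were matched by their older names through RefSeq. Alternatives changed the pseudocount (0.5 or 0.1), filter, scaling, library weights and trend, or left out each library.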

Additional observations from a re-analysis of the deposited data

How the results depend on the processing

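In the main setting 13 genes were higher and 5 lower over all tested genes, and among the fibroblast and matrix genes 0 were higher and 1 lower, with a median log2 change of 0.46. No paired analysis was possible because the groups share no replicate numbers. Over all genes, 29 were higher with a pseudocount of 0.1, 3 without the filter on low values and 3523 with arrayWeights. Lower genes numbered 10 under quantile normalization, 10 under median-of-ratios scaling and 369 with arrayWeights. Leaving out each library in turn gave 0 to 832 higher and 0 to 106 lower, with 0 in both directions without any 1 control (replicate 1, 2 or 3), 2 and 3 without replicate 4, 413 and 45 without replicate 5, and 832 and 106 without replicate 6. In a setting chosen after seeing the data, replicate 6 was left out with the tested genes kept as over 6 libraries, which gave 962 higher and 114 lower.

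Among the fibroblast and matrix genes, 3 were higher with arrayWeights and 2 without replicate 5 (range 0 to 2 over left-out libraries). The lower count went from 1 to 0 without the filter and without replicate 1, 2, 3 or 4 (range 0 to 1). The median log2 change was 0.12 under quantile normalization, 0.15 under median-of-ratios scaling and 0.11 without replicate 6 in both versions of that setting, and it ran from 0.11 to 0.62 over the left-out libraries. The 2 reversals were of Dcn, to -0.015 with median-of-ratios scaling and -0.046 with quantile normalization. The cause of these shifts was not tested. Without the filter Fap had a log2 change of 0.13 (limma adjusted p = 0.183). Depth is unknown, so the counting error of genes with low FPKM such as Fap cannot be given.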
